A study of Homo sapiens with 6 samples.

Results

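In PC9ER cells given gefitinib, the transcripts of tissue factor (F3), urokinase (PLAU) and the metalloproteinase inhibitor TIMP3 were at least 2-fold lower than in control cells, while those of the inhibitors TIMP1 and TIMP2 were 1.48-fold and 1.28-fold higher. These genes belong to a set of 7 that act in proteolysis at the cell surface and in the start of coagulation: PLAU, PLAT, PLAUR, F3, TIMP1, TIMP2 and TIMP3. They were taken by symbol from the 15376 rows of the table of coding genes. All 7 had a row, and all 7 were tested. PC9ER cells are labelled as a human NSCLC (lung cancer) line whose growth depends on EGFR but which resists gefitinib, a drug against the EGFR kinase. Total RNA was extracted and sequenced as 3 libraries from control cells given the vehicle DMSO and 3 libraries from cells given 1 µM gefitinib. All 6 libraries are labelled with 10% serum. The single protocol covering all samples has 72 h of vehicle in place of a Notch inhibitor. It also has serum withdrawal overnight, and gefitinib during the final 6 h. Whether control cells also lost serum is left unstated, and if they did not, gefitinib and serum withdrawal cannot be told apart. The libraries come from 1 line, and nothing says that replicates were separate cultures. Each p-value therefore reflects library-to-library spread alone, which may be technical.

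Urokinase and tissue-type plasminogen activator, the products of PLAU and PLAT, cleave plasminogen to plasmin, a broad protease that dissolves fibrin and degrades extracellular matrix. PLAUR encodes the urokinase receptor, which holds urokinase at the cell surface. F3 encodes tissue factor, the membrane receptor for coagulation factor VII that starts clotting, and which carcinoma cells often carry. The TIMP genes encode secreted inhibitors of matrix metalloproteinases and of some related ADAM proteases; TIMP3 stays bound to the matrix and is known for blocking the sheddase ADAM17. EGFR signalling through the ERK kinases and the AP-1 transcription factors is a known inducer of PLAU, PLAUR and F3 in epithelial cells.

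The promoters of the 3 genes that fell at least 2-fold are shown. They were picked by that fall, and whether AP-1, NF-kappa-B or EGR1 acted on them was not tested. RefSeq promoters (GRCh38.p14) were found for 5 of the 7 genes, with 2 starts for PLAU. Each sequence runs 5′ to 3′ on the strand of the gene, begins 250 bases before the RefSeq start, and ends where a GENCODE exon of the gene begins. Capitals mark matches to AP-1 (TGANTCA), NF-kappa-B (GGNNTTTCC) or EGR1 (GCGNGGGCG) on either strand. The F3 sequence is chr1:94541801-94542009, minus strand; the PLAU sequence, before the second start, is chr10:73910882-73911103, plus strand; the TIMP3 sequence is chr22:32801455-32801700, plus strand.
F3: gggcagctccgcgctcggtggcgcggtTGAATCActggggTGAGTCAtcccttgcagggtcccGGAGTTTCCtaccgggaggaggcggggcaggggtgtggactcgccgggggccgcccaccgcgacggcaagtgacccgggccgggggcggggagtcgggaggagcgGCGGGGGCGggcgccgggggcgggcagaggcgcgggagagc
PLAU: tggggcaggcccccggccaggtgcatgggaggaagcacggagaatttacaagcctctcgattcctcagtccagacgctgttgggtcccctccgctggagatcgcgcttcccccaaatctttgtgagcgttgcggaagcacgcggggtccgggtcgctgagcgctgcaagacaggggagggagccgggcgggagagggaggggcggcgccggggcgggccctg
TIMP3: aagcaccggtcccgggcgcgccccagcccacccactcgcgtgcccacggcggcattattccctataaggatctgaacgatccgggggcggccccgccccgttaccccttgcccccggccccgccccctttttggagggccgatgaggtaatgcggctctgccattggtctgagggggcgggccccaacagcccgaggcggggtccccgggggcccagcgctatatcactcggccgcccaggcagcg

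In the 250 bases before its start, F3 held 2 AP-1 matches, at -223 to -217 and -210 to -204 counted from the start, and PLAUR held 1, at -186 to -180. Of 34943 RefSeq promoter windows of the same length, 6.59% held an AP-1 match. F3 also held an NF-kappa-B match at -187 to -179, against 5.48% of all windows, and an EGR1 match at -82 to -74, against 8.39%; PLAUR held an EGR1 match at -90 to -82. GGGCGG, the core letters of the SP1 motif, stood in the windows of F3, TIMP1, TIMP3 and the second start of PLAU, and in 42.5% of all windows; in F3, an SP1 match at -78 to -73 overlaps the EGR1 match. TATAAA was matched in F3 on the reverse strand at -28 to -23, and in 10.8% of all windows. Neither PLAU window, nor those of TIMP1 and TIMP3, held any of the AP-1, NF-kappa-B or EGR1 letters. Sequence further from these starts was not searched, so matches elsewhere near these genes remain possible. The PLAU starts lie 1433 and 1955 bases downstream of the GENCODE start of the gene. All 250 bases of the PLAUR window lie in a GENCODE exon of PLAUR, so its matches are not upstream of that exon. Part of each other window also lies in an exon of its gene. A match describes letters only, not binding, and the letters were chosen after the sequences were seen.

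**Figure D1:**
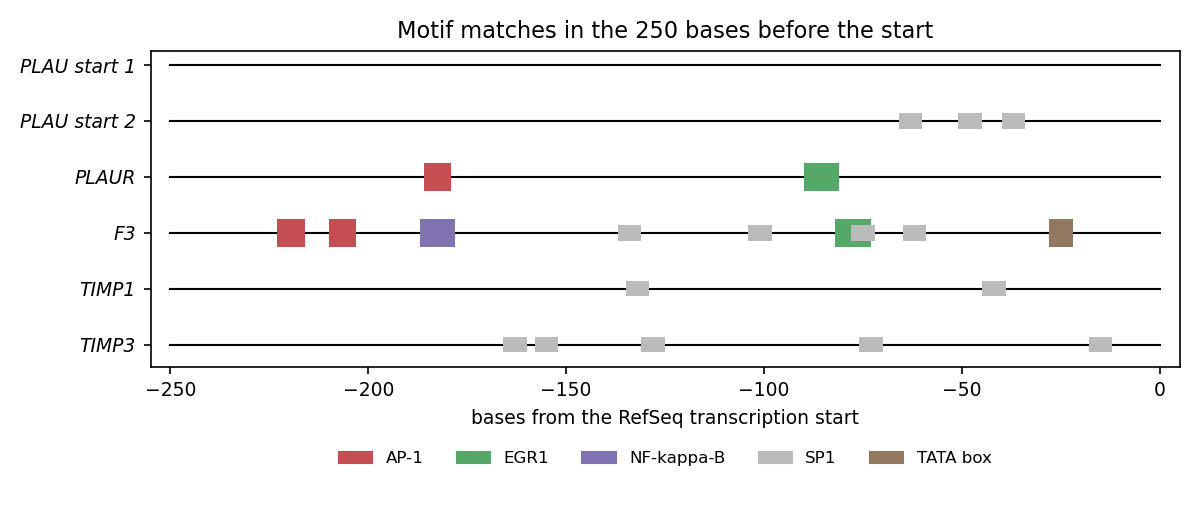
Motif matches on either strand in the 250 bases before each RefSeq start, by distance from the start (0 is the start); each bar is 1 match. F3 is the only window shown with AP-1, NF-kappa-B and EGR1 matches together, and PLAUR has 1 AP-1 and 1 EGR1 match. The whole PLAUR window lies in a GENCODE exon of PLAUR.

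Of the 7 genes, 4 were lower with gefitinib, 2 were higher and 1 did not pass the test (limma, adjusted p under 0.05 over all 15229 genes tested). Across all genes tested, 51.1% were called in either direction, 28.3% higher and 22.8% lower, so a called gene is common in this comparison. A change of at least 2-fold with a call, seen for 3 of the 7, was found for 22.3% of all genes. For 6 of the 7 genes control and gefitinib libraries did not overlap, against 58.0% of all genes. The median log2 difference over the 7 genes was -0.43, and that over all genes was 0.10. Values below are normalized reads, that is, read counts scaled to a common library total, so a difference is relative to all coding transcripts. In such bulk samples, fewer cells with a transcript and less of it per cell cannot be told apart.

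**Figure D2:**
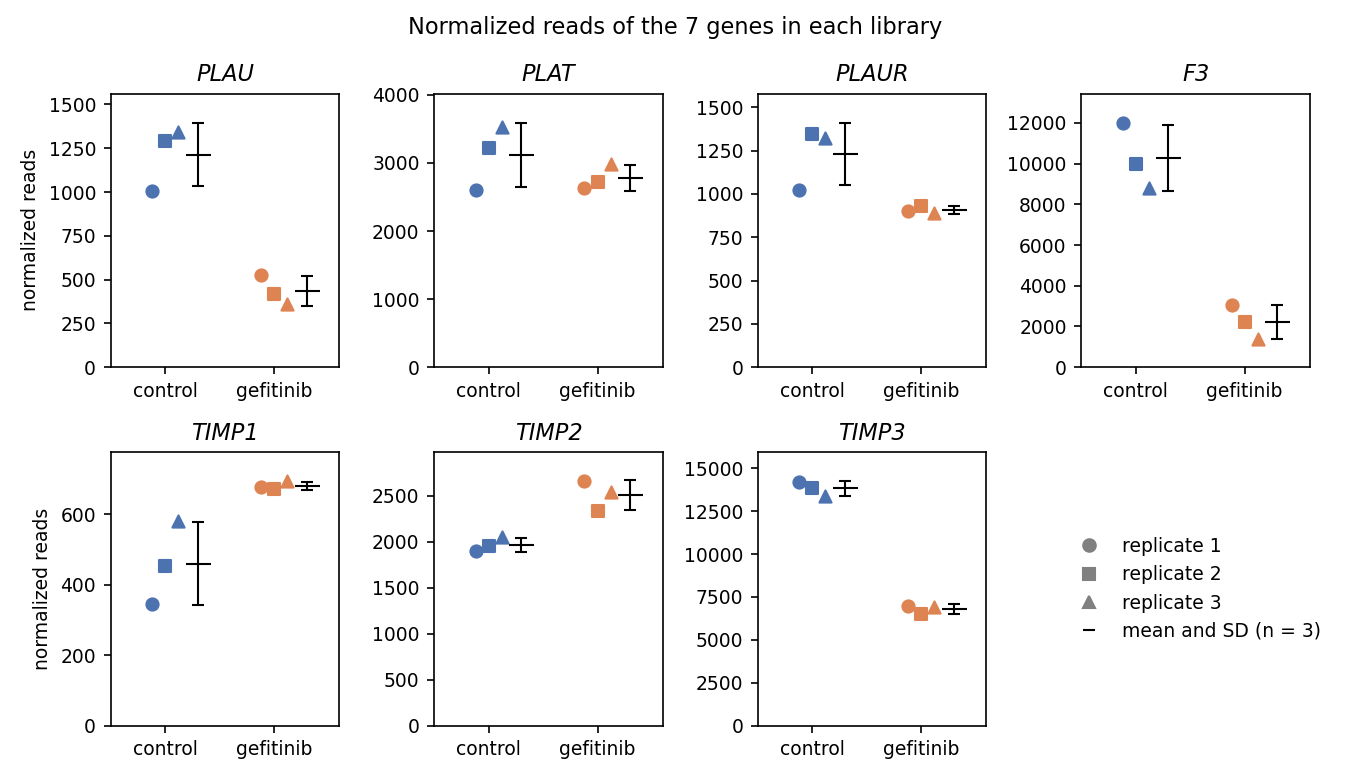
Normalized reads of each gene in the 3 control and 3 gefitinib libraries; symbols give the replicate, black bars the mean and SD (n = 3), and every axis starts at 0. The groups are separate for 6 genes, while for PLAT gefitinib replicates 1, 2 and 3 lie within the control range.

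PLAU, the urokinase gene, had 1006, 1289.6 and 1345 normalized reads in control replicates 1, 2 and 3, and 529, 417 and 363 in gefitinib replicates 1, 2 and 3. Every gefitinib library was below every control library, with control replicate 1 the lowest control and gefitinib replicate 3 the lowest of all. The mean went from 1213 ± 182 (SD, n = 3) to 436 ± 84.8, a 2.78-fold fall. The log2 difference was -1.48 ± 0.16 (SE), with a 95% interval from -1.85 to -1.11 (limma adjusted p = 7.05e-05). PLAU (ENSG00000122861; chromosome 10, 73909177 to 73917497, GRCh38, plus strand) shares 916 bases, 31.1% of its exon sequence, with exons of C10orf55 on the opposite strand. C10orf55 was counted at 12.1 ± 4.83 and 0.926 ± 0.938 normalized reads, and the sources used here do not give whether counting used the strand. Reads in that stretch are of uncertain origin.

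PLAT, the gene of tissue-type plasminogen activator, did not pass the test. It had 2604, 3215 and 3533 normalized reads in control replicates 1, 2 and 3, and 2631, 2720.1 and 2990.3 in gefitinib replicates 1, 2 and 3. The gefitinib libraries lay between control replicate 1, the lowest of all, and control replicate 2. The log2 difference was -0.16 ± 0.12 (SE), with an interval from -0.42 to 0.11 (limma adjusted p = 0.295), so a fall as large as that of PLAU is outside the interval. Without control replicate 1 the difference was -0.28 ± 0.08 and passed (limma adjusted p = 0.0102). No other annotated gene overlaps PLAT (ENSG00000104368).

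PLAUR, the urokinase receptor gene (ENSG00000011422; chromosome 19, 43646095 to 43670547, minus strand), fell by less than PLAU. Control replicates 1, 2 and 3 had 1024, 1343 and 1325 normalized reads, and gefitinib replicates 1, 2 and 3 had 903, 933 and 889.7. All gefitinib libraries were below all control libraries, and they lay within 1.05-fold of each other against 1.31-fold among controls. The mean went from 1231 ± 179 (SD, n = 3) to 909 ± 21.9, and the log2 difference was -0.43 ± 0.12 (SE), with an interval from -0.69 to -0.16 (limma adjusted p = 0.0128). The call was lost without control replicate 2 (-0.36, limma adjusted p = 0.0655), and leaving out control replicate 1 gave -0.55 (limma adjusted p = 0.000137).

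F3, the tissue factor gene (ENSG00000117525; chromosome 1, 94529225 to 94541800, minus strand), fell the most of the 7. Control replicates 1, 2 and 3 had 12008, 10003 and 8822 normalized reads, and gefitinib replicates 1, 2 and 3 had 3046, 2228 and 1403. The highest gefitinib library was well below the lowest control, and the gefitinib libraries themselves differed by 2.17-fold, more than for any other of the 7 genes. The mean went from 10277 ± 1611 (SD, n = 3) to 2226 ± 821, a 4.62-fold fall, with a log2 difference of -2.27 ± 0.24 (SE) and an interval from -2.81 to -1.72 (limma adjusted p = 5.94e-05). By absolute log2 difference F3 was within the top 3.96% of all genes tested and PLAU within the top 11.8%. F3 and PLAU stood in the same order over the gefitinib libraries, both highest in replicate 1, the shallowest library with 13674237 coding reads, and lowest in replicate 3, the deepest with 38581498; the part of depth in this was not tested.

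TIMP3, the gene of the matrix-bound inhibitor (ENSG00000100234; chromosome 22, 32801701 to 32863043, plus strand), was the most even of the genes that fell in the control libraries, while PLAUR was more even with gefitinib. It had 14207, 13868 and 13377 normalized reads in control replicates 1, 2 and 3, and 6981, 6488 and 6911 in gefitinib replicates 1, 2 and 3. The libraries of a group were within 1.08-fold of each other and the groups were far apart. The mean went from 13817 ± 417 (SD, n = 3) to 6793 ± 267, a 2.03-fold fall, with a log2 difference of -1.02 ± 0.07 (SE) and an interval from -1.19 to -0.86 (limma adjusted p = 5.68e-06). TIMP3 lies inside SYN3 on the opposite strand without shared exon sequence, and SYN3 had 1 read in all control and 9 in all gefitinib libraries.

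TIMP1, a secreted inhibitor that is widely induced by growth factors and cytokines, moved the other way. It had 346, 453 and 580.1 normalized reads in control replicates 1, 2 and 3, and 676, 671 and 693 in gefitinib replicates 1, 2 and 3. All gefitinib libraries were above all controls, and the control libraries spread over 1.68-fold against 1.03-fold with gefitinib. The mean went from 459.6 ± 117 (SD, n = 3) to 679.9 ± 11.9, with a log2 difference of 0.60 ± 0.17 (SE) and an interval from 0.21 to 0.98 (limma adjusted p = 0.0165). The call was narrowly lost without gefitinib replicate 1, 2 or 3 (limma adjusted p = 0.0532, 0.0520 and 0.0521, at differences of 0.60, 0.61 and 0.58), and leaving out control replicate 1 gave 0.41 (limma adjusted p = 0.0130). TIMP1 (ENSG00000102265; chromosome X, 47582313 to 47586789, plus strand) lies inside SYN1 on the opposite strand with no shared exon sequence, and SYN1 had no reads in control and 15 in all gefitinib libraries.

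TIMP2, the inhibitor that also takes part in the activation of MMP2 by MMP14, rose by the smallest amount that passed. Control replicates 1, 2 and 3 had 1904, 1949 and 2049 normalized reads, and gefitinib replicates 1, 2 and 3 had 2657, 2331 and 2538. The groups did not overlap, and every setting with a library left out kept the call. The mean went from 1967 ± 74.4 (SD, n = 3) to 2509 ± 165, with a log2 difference of 0.35 ± 0.08 (SE) and an interval from 0.16 to 0.53 (limma adjusted p = 0.00583). TIMP2 (ENSG00000035862; chromosome 17, 78852977 to 78925387, minus strand) shares 198 exon bases with CEP295NL on the same strand, which had 2 reads in all 6 libraries, and 367 with a noncoding antisense gene that was not analysed here. TIMP4, the remaining gene of the inhibitor family, had 176 ± 15.9 and 147 ± 11.1 normalized reads and did not pass (limma adjusted p = 0.213).

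**Figure D3:**
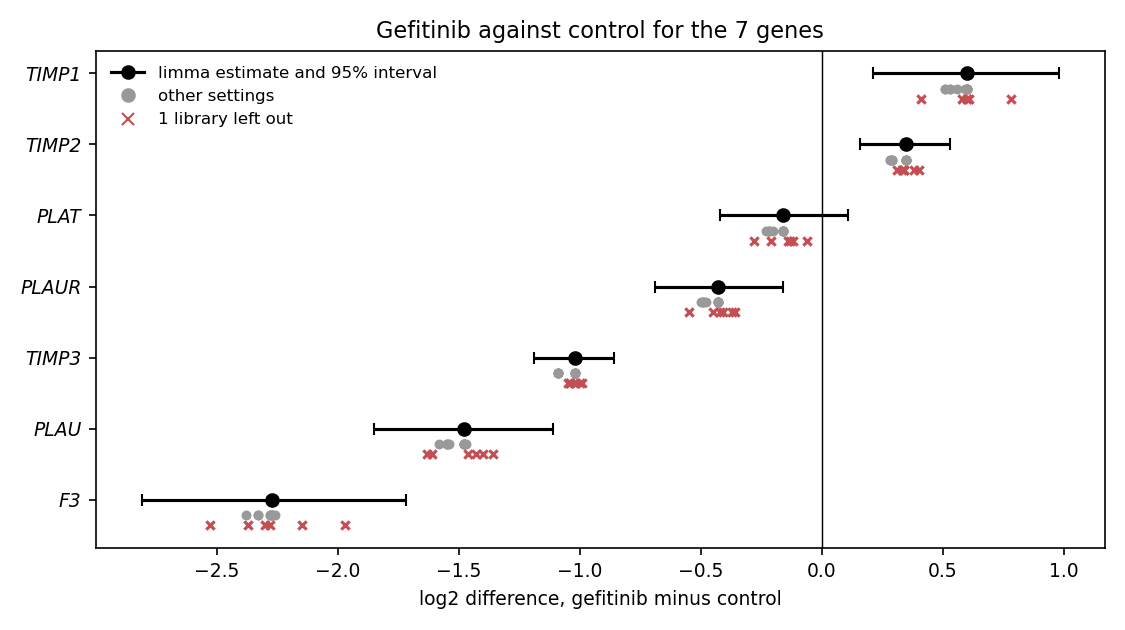
Log2 difference, gefitinib minus control, for each gene: black points are limma estimates with 95% intervals, grey points the other settings and red crosses the fits with 1 library left out. F3, PLAU and TIMP3 stay at or below -0.99 throughout, and only the interval of PLAT spans 0.

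Levels of different genes were compared as normalized reads per kilobase of merged exon. The merged exons take in every annotated transcript, so a length can exceed that of the transcripts present. Lengths ran from 1541 bases for TIMP1 to 6618 for PLAT, and any excess was not measured. The order, shares and ratios of levels between genes given below rest on these lengths. For PLAU, 31.1% of the length is shared with C10orf55, and the effect of this on its place and ratio was not measured. In control cells F3, at 3575 ± 560 (SD, n = 3), and TIMP3, at 3002 ± 90.6, were far above the others, and both were within the top 1% of 15179 genes with a length (0.791% and 0.995%). F3 and TIMP3 overlapped in their control libraries. PLAT (471 ± 71.3), PLAU (411 ± 61.6), TIMP2 (349 ± 13.2), TIMP1 (298 ± 76.2) and PLAUR (276 ± 40.2) followed, each overlapping the next in the order. With gefitinib the order was TIMP3 (1476 ± 58.0), F3 (774 ± 286), TIMP2 (445 ± 29.3), TIMP1 (441 ± 7.73), PLAT (420.1 ± 28.3), PLAUR (204 ± 4.92) and PLAU (148 ± 28.8), and of these neighbours TIMP2 with TIMP1 and TIMP1 with PLAT overlapped. PLAU thus stood at the bottom of the order with gefitinib, while TIMP1, TIMP2 and PLAT all overlapped one another there.

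The make-up of the inhibitor and activator transcripts shifted with these differences, described here without a test. TIMP3 made up 82.3 ± 2.45% (SD, n = 3) of the summed TIMP1, TIMP2 and TIMP3 level per kilobase in control and 62.5 ± 0.0528% in gefitinib libraries. The shares of TIMP1 went from 8.17 ± 2.09% to 18.7 ± 0.599% and those of TIMP2 from 9.57 ± 0.367% to 18.8 ± 0.562%. The summed level itself went from 3649 ± 3.22 to 2362 ± 91.0. The ratio of PLAT to PLAU per kilobase lay between 1.11 and 1.17 in control and between 2.22 and 3.67 in gefitinib libraries.

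**Figure D4:**
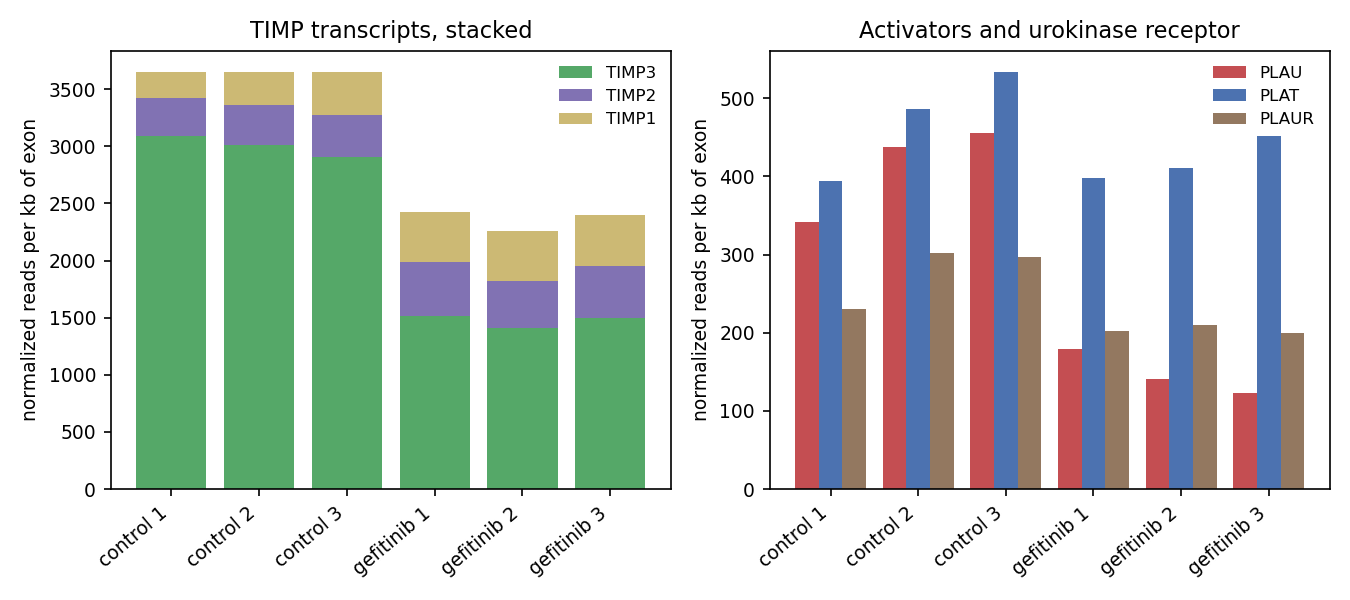
Normalized reads per kilobase of exon in each library: left, TIMP1, TIMP2 and TIMP3 stacked; right, PLAU, PLAT and PLAUR side by side. The TIMP stack is near 3649 in each control library and between 2258 and 2427 with gefitinib, and the PLAU bars do not overlap between groups while the PLAT bars do.

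Depth was between 13674237 and 38581498 coding reads per library, and each of the 7 genes had at least 400 reads in every library. Control replicate 1 stood apart from the other controls on the second principal component of the log2 values (31.9, against -9.5 and -23.6), which held 7.97% of the variance; it had the lowest PLAU, PLAT, PLAUR, TIMP1 and TIMP2 and the highest F3 and TIMP3 of the controls. Without it the differences were -1.61 for PLAU, -2.15 for F3 and 0.33 for TIMP2, and these and TIMP3 were past the threshold by limma. The cells were epithelial by their markers: EPCAM, CDH1, KRT8, KRT18, KRT19, CLDN4, CLDN7 and ESRP1 summed to between 80218 and 107356 normalized reads in control and between 69516 and 72371 with gefitinib, with 5 of 8 lower, 1 higher and 2 not past the threshold. Among all genes tested, 22.8% were lower and 28.3% higher. The lung markers NAPSA, SFTPB and SFTPC summed to at most 33.3, and NKX2-1 and SFTA3 had no single row among the coding genes. Of fibroblast markers 5 of 7 were tested, with sums from 32.4 to 71.4 in control and 47.6 to 68.0 with gefitinib, nearly all COL1A1, and COL1A2, COL3A1, PDGFRB and THY1 at or near 0. Blood markers, nearly all ITGAM in control, summed to between 47.3 and 56.4 in control and 21.2 and 43.6 with gefitinib, with PTPRC at or near 0. ITGAM was called lower (log2 difference -1.72). CD14 was called higher (2.65), from a mean of 0.322 normalized reads in control to 7.12 with gefitinib, and the other 5 blood markers did not pass. The part of these markers in the results was not tested. Endothelial markers summed to between 1180 and 1360 in control and 149 and 177 with gefitinib. PECAM1 was nearly all of this sum in control and the larger part of it with gefitinib, where CDH5 had 33.5 ± 5.09 (SD, n = 3), and TEK was at or near 0.

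Inhibitors of plasminogen activators moved in both directions. SERPINE2, or protease nexin-1, fell from 7953 ± 659 normalized reads (SD, n = 3) to 4792 ± 570, a log2 difference of -0.73 ± 0.10 (SE; limma adjusted p = 0.000295). SERPINB2, a further inhibitor of urokinase, was counted 11 times over the control libraries and 0 times with gefitinib. SERPINI1, or neuroserpin, an inhibitor of tissue-type activator known from neurons, rose from a total of 7 reads in control to 759 with gefitinib (log2 difference 6.08 ± 0.54; limma adjusted p = 2.10e-05). Plasminogen itself (PLG) could not be tested, because its symbol had no single row among the coding genes.

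Partners of plasminogen and of the urokinase receptor mostly did not pass. Of 16 tested, 2 fell, 3 rose and 11 did not pass, with a median difference of 0.03. Among all genes tested, 22.8% were lower and 28.3% higher, with a median of 0.10. ANXA2, a plasminogen-binding annexin at the cell surface, fell from 7408 ± 488 normalized reads (SD, n = 3) to 4990.3 ± 234. PLGRKT, a plasminogen receptor, fell from 609 ± 59.2 to 375 ± 13.4. VLDLR, an endocytic receptor that clears complexes of activators with their inhibitors, rose by 0.41 ± 0.10 (SE) on the log2 scale. The VLDLR call was lost against a 1.2-fold change. ITGA3, an integrin subunit, had 7762 ± 2337 and 10934 ± 543 (limma adjusted p = 0.0411), a call lost without control replicate 2 or without gefitinib replicate 1, 2 or 3 (limma adjusted p = 0.0591, 0.0941, 0.101 and 0.111). The other gene called higher, MRC2, named after its values were seen, had 0 reads in control and 19 in gefitinib libraries.

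The tissue factor list had 13 tested genes: 6 lower, 3 higher and 4 not past the threshold, with a median of -0.38; of all genes, 22.8% were lower and 28.3% higher. F2RL1, the receptor PAR2 that is cleaved by the tissue factor and factor VIIa complex, fell from 4672 ± 287 normalized reads (SD, n = 3) to 3579 ± 191. The F2RL1 call was lost against a 1.2-fold change. F2R, the thrombin receptor PAR1, fell from 350.3 ± 30.5 to 174 ± 17.5. THBD, or thrombomodulin, fell from 158 ± 10.7 to 70.8 ± 14.3. TFPI2, a relative of the tissue factor pathway inhibitor that acts mainly on plasmin and related proteases, fell from 384 ± 27.3 to 224 ± 31.2. TFPI, the main inhibitor of tissue factor, had 1 read in all 6 libraries. The genes called higher, named after their values were seen, were at very low counts in control: F2 and F7 had 0 reads there and 16 and 7 with gefitinib, and SERPINC1 had 5 and 94. The F7 call was lost without any 1 of control replicates 1, 2 and 3 or gefitinib replicates 1 and 2 (limma adjusted p = 0.0846, 0.104, 0.0907, 0.0754 and 0.166), and also with a replicate block, a pseudocount of 5 or DESeq2 (adjusted p = 0.0595, 0.0922 and 0.200).

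Most of the matrix metalloproteinases tested had few reads. Of 17 genes tested, BSG among them, 12 had a mean under 10 normalized reads. In this list 5 were higher, 3 lower and 9 not past the threshold, with a median of 0.48. Among all genes tested, 28.3% were higher and 22.8% lower, with a median of 0.10. MMP14 and MMP15, membrane-type metalloproteinases, rose from 165 ± 39.3 to 297 ± 28.1 and from 554 ± 232 to 1191 ± 70.0 normalized reads (SD, n = 3). BSG, or basigin, an inducer of these enzymes, had 3907 ± 1439 and 5909 ± 273 (limma adjusted p = 0.0416), a call lost without gefitinib replicate 1, 2 or 3 (limma adjusted p = 0.104, 0.0971 and 0.107). MMP2 had 4 reads in control and 7 in gefitinib libraries and did not pass. MMP9 had 0 and 11 reads, a limma call that was lost without gefitinib replicate 3 (limma adjusted p = 0.0502) and also with DESeq2. Of the remaining calls, named after their values were seen, MMP25 went from 8 reads to 108, MMP13 from 42 to 3, MMP24 from 40 to 15 and MMP7 from 15 to 5. The MMP7 call was lost in every fit with a library left out except that without control replicate 2 (limma adjusted p up to 0.120). It was also lost with DESeq2 and against a 1.2-fold change.

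Among ADAM and ADAMTS proteases with RECK and TIMP4, 7 of 14 were lower, 3 higher and 4 not past the threshold, with a median of -0.26. Of all genes, 22.8% were lower and 28.3% higher. ADAM8, ADAM9, ADAM10 and ADAM12, named after their values were seen, were lower at -0.66, -0.27, -0.29 and -0.59. Each lost its call against a 1.2-fold change and without control replicate 2, and ADAM8, ADAM9 and ADAM10 also without some other single libraries. ADAM17 did not pass (-0.10, limma adjusted p = 0.356). ADAM19 went down from 955 ± 83.0 to 298 ± 20.5 normalized reads (SD, n = 3), ADAMTS9 from 278 ± 8.90 to 37.4 ± 15.5 and ADAMTS12 from 2869 ± 82.0 to 1729 ± 47.6. ADAMTS15, a proteoglycan-cleaving member, rose from 18.0 ± 8.13 to 97.3 ± 20.1. It met the mean of 50 used for naming only through the gefitinib libraries, and ADAMTS9 met it only through the control libraries. RECK, a membrane-anchored inhibitor of metalloproteinases, rose from 25.2 ± 6.46 to 63.8 ± 7.75, and ADAMTS4, named after its values were seen, from 3 reads to 27. Of 16 other pericellular serine proteases and their inhibitors tested, 4 were higher, 4 lower and 8 not past the threshold, with a median of -0.15. KLK10 and KLK7, kallikrein-related peptidases of epithelia, fell from 489.6 ± 45.4 to 196 ± 18.2 and from 638 ± 56.9 to 419 ± 26.8, and PRSS23 fell from 10077 ± 358 to 7574 ± 340.2. TMPRSS4, a membrane serine protease that can activate pro-urokinase, rose from 226 ± 54.8 to 498 ± 39.5. Named after their values were seen, PRSS8 was lower at -1.38 and TMPRSS2, SPINT2 and HGFAC were higher at 0.53, 0.41 and 1.62. Against a 1.2-fold change, PRSS23, SPINT2 and TMPRSS2 lost their calls. The TMPRSS2 call was also lost without control replicate 2 or any gefitinib replicate (limma adjusted p from 0.0539 to 0.0691). The HGFAC call was lost without control replicate 1 or 3 or gefitinib replicate 1 or 3 (limma adjusted p from 0.0558 to 0.0937), and also with DESeq2.

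Transcription factors known to act on these promoters were split. EGR1 rose from 75.7 ± 21.1 to 6289.9 ± 819.8 normalized reads (SD, n = 3), FOS from 406 ± 32.4 to 2489 ± 437 and FOSB from 59.7 ± 16.8 to 462 ± 86.2, and JUNB and JUND, named after their values were seen, were also higher, at 1.08 and 0.54. The AP-1 subunits JUN and FOSL2 fell, by 0.65 ± 0.10 and 0.54 ± 0.08 (SE) on the log2 scale, and so did NFKB1 and RELA, subunits of NF-kappa-B, by 0.82 and 0.44, and SP1 by 0.86 (all 5 named after their values were seen). The RELA call was lost without control replicate 2 (-0.40, limma adjusted p = 0.0540). FOSL1, an AP-1 subunit, had 1342 ± 309 and 1136 ± 131 (limma adjusted p = 0.320). With control replicate 1 left out it was lower (-0.43, limma adjusted p = 0.00481). ETS1 fell from 2629 ± 348 to 1645 ± 28.7 and SMAD3 from 3344 ± 88.5 to 1879.6 ± 63.0. Of the 16 factors tested, 5 rose, 7 fell and 4 did not pass, with a median of -0.30. Over the 98 genes tested in the 7 lists together, 24 were higher, 32 lower and 42 not past the threshold, against 28.3% higher and 22.8% lower of all genes. With TMM factors the lists had 24 higher and 36 lower, and all genes 3902 and 3845.

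**Figure D5:**
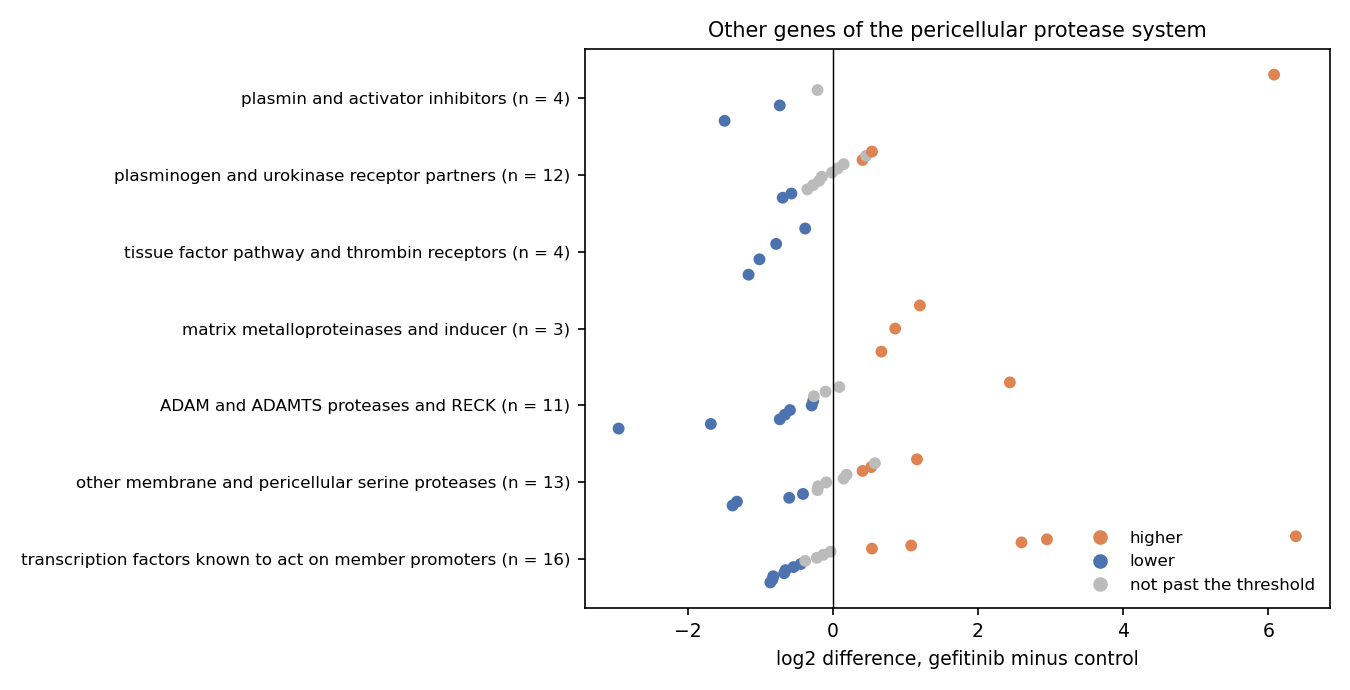
Log2 difference, gefitinib minus control, of the genes of each list with a mean of 50 normalized reads or more; each point is 1 gene, coloured by its limma call, and the height within a row only separates points. All 4 points around tissue factor lie below 0 and all 3 metalloproteinase and inducer points above it, while EGR1 and SERPINI1 stand beyond 6. SERPINI1 met the mean of 50 only through the gefitinib libraries.

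The genes whose profiles over the 6 libraries were most like those of the 7 were sought among 10022 genes with a mean of 100 normalized reads or more, by the root mean square distance of log2 values from the control mean. The nearest to F3 were ZNF165 (distance 0.098) and UBXN8 (0.120), and to PLAU, DNAJB12 (0.039) and TNIP1 (0.052). The nearest to TIMP3 were POP5 (0.040) and HIVEP2 (0.045), to PLAUR, SAMD1 (0.042) and NSDHL (0.049), and to PLAT, HUWE1 (0.040) and DTNB (0.047). TIMP1 was nearest to PTPRS (0.044) and OAZ1 (0.050), and TIMP2 to ZSCAN5A (0.019) and PCNX (0.030). No gene came as close to F3 as the nearest gene did to each of the other 6. The distance is not scaled, and F3 had the largest difference and the widest gefitinib spread of the 7.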

How the data were processed

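Samples were grouped by their titles, and columns were matched to samples by the description labels. The table of coding genes deposited by the authors holds a never-negative signal, that is, read counts whose sum was brought to 18085800 in each library. STAR, HTSeq and GRCh38 are listed, without versions, per the submitters' processing notes; the scaling method is not stated there. All values (100%, tolerance 0.01 read) were whole multiples of 1 step per library, which gave back the reads; edgeR 4.0.16 on them called 3707 genes higher and 3752 lower. Another deposited table served only to look up gene IDs: its 6 per-sample columns match no label and are not used. Of 15376 rows, 147 were 0 throughout and 15229 were tested 2-sided with limma-trend (limma 3.58.1 under R 4.3.3). The input was log2(value + 1), and p-values were adjusted over all genes by Benjamini-Hochberg, with a threshold of 0.05. Log2 differences understate the change of low genes. The p-values printed as limma adjusted p come from fits across all genes. Positions, strands and exon lengths are from GENCODE release 29 (GRCh38). The test was tried on simulated data with known changes in genes at a mean of 50 or more. It recovered 50.7% of 67 changes of 1.5-fold, 91% of 67 of 2-fold and 100% of 66 of 4-fold. It also called 10 unchanged genes. Far fewer genes were changed there than were called in the data, so recovery in the data may differ. Every pair of replicates differed by more than sampling noise.

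The 7 genes, the 7 pathway lists and the marker lists were chosen with earlier results of these data known, and the motif letters after the promoter sequences were seen. Genes were named by rule: up to 4 per list with the smallest p among those called with a mean of 50 normalized reads or more, 15 further genes of the system, coding genes overlapping the 7 genes, and the 2 nearest profiles of each. A result that this rule names, and the count of the inhibitor list it belongs to, are not reported here. Alternatives were pseudocounts of 0.5 and 5, filters on low values, TMM and DESeq2 factors, count models on the reads given back (edgeR, limma-voom, DESeq2 1.42.0), a replicate block, a minimum change of 1.2-fold in the test, and leaving out each library.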

Additional observations from a re-analysis of the deposited data

How the results depend on the processing

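F3, PLAU and TIMP3 kept their direction and their call in all 17 alternatives, with log2 differences from -2.53 to -1.97, -1.63 to -1.36 and -1.09 to -0.99. Against a 1.2-fold change, none of the 7 genes was called higher (0) and PLAUR at -0.43 (limma adjusted p = 0.204), TIMP1 at 0.60 (0.104) and TIMP2 at 0.35 (0.306) lost their calls. With 1 library left out, the number of the 7 called higher ranged from 1 to 2 and the number called lower from 3 to 5; the log2 difference ranged from -0.55 to -0.36 for PLAUR, from -0.28 to -0.06 for PLAT and from 0.41 to 0.78 for TIMP1. MMP2, at 4 and 7 reads, had a difference of -0.19 that became 0.04 with DESeq2, 0.08 without control replicate 2 and 0.28 without gefitinib replicate 1, and ranged from -0.68 to 0.28 with 1 library left out. The excess of higher over lower calls among all genes (4312 against 3473) shrank to 3902 against 3845 with TMM factors and to 3916 against 3824 with DESeq2 size factors, while the 7 genes stayed at 2 higher and 4 lower. With a replicate block, 4438 genes were called higher and 3552 lower, against 4312 and 3473 without it, and no call of the 7 genes changed; among the other named genes the calls of F7, SYN3 and ZSCAN5A were lost. Same-numbered libraries deviated together only weakly (correlations of 0.13, 0.04 and 0.09), and not every library correlated best with its own number, so the numbers were not taken as pairs. The fewest reads behind a value of the 7 genes were 400, for PLAU in gefitinib replicate 1.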

Other observations

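The summed level of TIMP1, TIMP2 and TIMP3 per kilobase of exon was 3649, 3653 and 3646 in control replicates 1, 2 and 3, although TIMP1 alone differed 1.68-fold among these libraries. This sum depends on the exon lengths used. With gefitinib the sum was 2427, 2258 and 2402. In the same libraries PECAM1, an adhesion receptor gene known from endothelium and platelets, fell from 1216 ± 80.4 (SD, n = 3) to 122 ± 10.5 normalized reads (log2 difference -3.31 ± 0.12 SE; limma adjusted p = 5.18e-07), while the endothelial markers VWF and CDH5 did not pass the test (limma adjusted p = 0.288 and 0.101).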
